A study of Mus musculus with 12 samples.

Results

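Potassium channel genes are described here across neonatal mouse cortex with and without deletion of the histone H3.3 genes. Members were all protein-coding genes in GENCODE M21 whose symbol begins with Kcn followed by letters and a number, which excludes the non-coding Kcnq1ot1. This gave 92 genes among the 51912 gene lines of each count file, of which 21870 were protein-coding. They were placed in classes by gene symbol: 40 voltage-gated subunits, 15 inward rectifiers, 14 two-pore channels, 8 calcium- or sodium-activated channels and 15 auxiliary subunits.

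Potassium channels are membrane proteins that let potassium ions leave or enter the cell along their electrochemical gradient. Voltage-gated channels open on depolarization and end or space action potentials, calcium- and sodium-activated channels open when those ions accumulate inside the cell, and inward rectifiers and two-pore channels hold the resting potential. Auxiliary subunits do not form a pore and instead change the gating or surface level of the channels they bind. In the neonatal cortex many neurons are still migrating or extending axons, and their channel set is not yet that of the adult.

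H3.3 is the histone H3 variant placed into chromatin outside DNA replication, and H3f3a and H3f3b encode the same protein. RNA came from whole cortex at postnatal day 0 in 3 groups of 4 libraries. The Emx1 dKO carried conditional deletions of H3f3a and H3f3b driven by Emx1-Cre, which acts in the progenitors of cortical excitatory neurons and glia. The Neurod6 dKO carried the same deletions driven by Neurod6-Cre, which acts in new postmitotic excitatory neurons. The third group was labelled control, with no further detail of its alleles. Interneurons, microglia and blood vessels arise outside both Cre lineages, so each library mixes targeted with other cells. In such bulk RNA fewer cells of a type and less RNA per cell cannot be told apart. Nothing in the labels says whether libraries of 1 group are separate animals. The p-values then reflect only how far the libraries spread, and some of that spread may be technical.

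Depth and labels were examined first. Libraries held between 722080 and 3502017 counts in genes, and 3 counts corresponded to between 0.857 and 4.155 CPM (counts scaled to a library size of 1000000). H3f3a was at 22.9 to 30.04 CPM in Emx1 dKO, at 22.1 to 37.8 CPM in Neurod6 dKO and at 17.7, 117, 16.4 and 121 CPM in control libraries 1 to 4. The libraries labelled control 1 and 3 were thus lower in H3f3a than all 8 knockout libraries. The label control does not say which H3f3a alleles they carried. H3f3b was at 167 to 180 CPM in Emx1 dKO, 111 to 146 CPM in Neurod6 dKO and 76.7 to 143 CPM in control, and counts summed over a gene do not show how much of it was removed. Transcripts of the Y-linked gene Eif2s3y were present at 85.6 and 38.0 CPM in Emx1 dKO libraries 3 and 4 and at no more than 1 count in any other library. Counts are therefore also given without control 1 and 3 and without Emx1 dKO 3 and 4.

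Of 92 members, 58 passed the filter on low counts and were tested together with all 11076 genes that passed. A gene was called higher or lower when the Benjamini-Hochberg adjusted p of edgeR's quasi-likelihood test was below 0.05. CPM values are scaled with TMM factors, and fold changes are on the log2 scale with their standard error (SE).

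The 5 sequences below belong to members that were called in both knockouts and kept these calls in every alternative fit. They are shown so that the base composition before their listed transcription starts can be read beside their values. The listed start of Kcnma1 lies inside the gene as annotated in GENCODE M21, so its window is not upstream of the whole gene. Each is the 250 bases before the transcription start listed by RefSeq (GRCm38.p6), 5′ to 3′ on the gene's strand, with each CG dinucleotide in capitals. The other such member, Kcnip1, is named only.
Kcnh1: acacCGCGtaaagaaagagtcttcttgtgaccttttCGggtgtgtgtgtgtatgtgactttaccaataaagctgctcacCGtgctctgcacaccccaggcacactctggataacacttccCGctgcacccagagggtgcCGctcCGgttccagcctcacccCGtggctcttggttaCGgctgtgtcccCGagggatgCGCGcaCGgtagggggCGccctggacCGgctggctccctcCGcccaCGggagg
Kcnh7: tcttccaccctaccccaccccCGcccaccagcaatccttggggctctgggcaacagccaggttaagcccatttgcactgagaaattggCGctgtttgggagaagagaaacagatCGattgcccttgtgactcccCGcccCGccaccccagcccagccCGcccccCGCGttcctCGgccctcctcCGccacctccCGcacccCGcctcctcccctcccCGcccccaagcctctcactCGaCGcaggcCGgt
Kcnd3: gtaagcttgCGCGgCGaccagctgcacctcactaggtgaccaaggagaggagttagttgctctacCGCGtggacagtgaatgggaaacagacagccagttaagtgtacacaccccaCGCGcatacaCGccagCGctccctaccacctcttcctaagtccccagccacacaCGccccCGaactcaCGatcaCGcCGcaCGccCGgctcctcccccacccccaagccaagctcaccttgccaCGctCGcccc
Kcnma1: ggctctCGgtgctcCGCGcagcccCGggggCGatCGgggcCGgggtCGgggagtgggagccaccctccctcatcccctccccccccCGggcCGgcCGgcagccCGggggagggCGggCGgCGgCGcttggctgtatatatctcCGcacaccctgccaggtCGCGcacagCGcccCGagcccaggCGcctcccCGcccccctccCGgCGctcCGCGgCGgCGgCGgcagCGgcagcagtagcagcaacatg
Kcnj2: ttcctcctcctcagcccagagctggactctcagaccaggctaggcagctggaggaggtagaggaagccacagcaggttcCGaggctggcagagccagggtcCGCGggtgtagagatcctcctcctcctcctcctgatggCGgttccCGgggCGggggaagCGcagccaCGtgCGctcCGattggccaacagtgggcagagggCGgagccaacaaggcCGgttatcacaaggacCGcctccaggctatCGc
The windows lie at chr1:192190527-192190776 (plus strand) for Kcnh1, chr2:63184288-63184537 (minus strand) for Kcnh7, chr3:105451640-105451889 (plus strand) for Kcnd3, chr14:24004206-24004455 (minus strand) for Kcnma1 and chr11:111065914-111066163 (plus strand) for Kcnj2. The motif CG reads the same on both strands and does not overlap itself. Its median over all 32851 RefSeq windows of this length was 6. It occurred 17 times in the window of Kcnh1, 16 times for Kcnh7, 18 for Kcnd3, 31 for Kcnma1 and 14 for Kcnj2. At least as many were present in 23.5% of all windows for Kcnh1, 25.4% for Kcnh7, 21.7% for Kcnd3, 5.19% for Kcnma1 and 29.4% for Kcnj2. Over the 8524 tested genes with a window the median was 17, with Kcnh7 and Kcnj2 below it, Kcnh1 at it, and Kcnd3 and Kcnma1 above it. Only 41 of the 58 tested members (70.7%) had a RefSeq window, under the 80% needed, so a comparison of CG content between called and other members would be void and none is reported.

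In Emx1 dKO 23 of the 58 tested members were called, 8 higher and 15 lower, which is 39.7%, against 20.2% of all genes tested (10.1% higher and 10.1% lower). In Neurod6 dKO 19 were called, 5 higher and 14 lower, which is 32.8%, against 11.3% of all genes (5.04% higher and 6.29% lower). Between the knockouts, 11 members differed, 6 higher and 5 lower in Emx1 dKO, which is 19.0%, against 6.84% of all genes (3.11% higher and 3.73% lower). The median log2 fold change of the tested members was -0.09 in Emx1 dKO and -0.11 in Neurod6 dKO, against 0.01 for all genes in either comparison. Lower calls outnumbered higher calls among the channels, and 29 of the 58 tested members passed no threshold. Scaled by library totals in place of TMM, the median of the members was 0.04 in Emx1 dKO and -0.05 in Neurod6 dKO, so the sign of the Emx1 dKO median depends on the scaling. Under that scaling the median of all genes was 0.135 in Emx1 dKO and 0.0715 in Neurod6 dKO, above that of the members in each.

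Across knockouts, 11 members were called lower in both (among them Kcnh1, Kcnh3, Kcnh5, Kcnh7, Kcnma1, Kcnn1, Kcnn2, Kcnt2, Kcnj2 and Kcnk9) and 4 were called higher in both (Kcnd3, Kcnc2, Kcng3 and Kcnip1). No member was called in opposite directions (0 of 58). Both comparisons use the same 4 control libraries, so they are not independent. Calls shared by both knockouts were not counted over all genes tested. The counts above are therefore not read as particular to the channels. Without the libraries labelled control 1 and 3, 14 members were called in Emx1 dKO and 13 in Neurod6 dKO, and 9 differed between the knockouts. The Emx1 dKO calls lost in that fit included those of Kcnc2, Kcng1, Kcng3, Kcnip3, Kcnk9, Kcnk12, Kcnn2 and Kcnt2 (adjusted p = 0.0612 to 0.241). The Neurod6 dKO calls lost included those of Kcng3, Kcnh2, Kcnj6, Kcnn1, Kcnn2 and Kcnn3 (adjusted p = 0.07 to 0.441), and the fit has fewer samples. Without Emx1 dKO 3 and 4, 15 members were called in Emx1 dKO and 20 in Neurod6 dKO, and 3 differed between the knockouts. The Emx1 dKO calls lost in this fit were those of Kcnc2, Kcng1, Kcng3, Kcnh3, Kcnip3, Kcnk9, Kcnk12, Kcnk13 and Kcnt2 (adjusted p = 0.0534 to 0.504). The differences between knockouts lost were those of Kcnab1, Kcnip3, Kcnj3, Kcnj6, Kcnk10, Kcnk12, Kcnmb2 and Kcnt1 (adjusted p = 0.0562 to 0.286). Scaling by library totals put the median of all genes at 0.135 in Emx1 dKO, against 0.01 with TMM. It gave 11 members higher and 11 lower there, against 7 higher and 14 lower in Neurod6 dKO. Over all genes it gave 1988 higher and 701 lower in Emx1 dKO, and 760 higher and 554 lower in Neurod6 dKO.

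**Figure D1:**
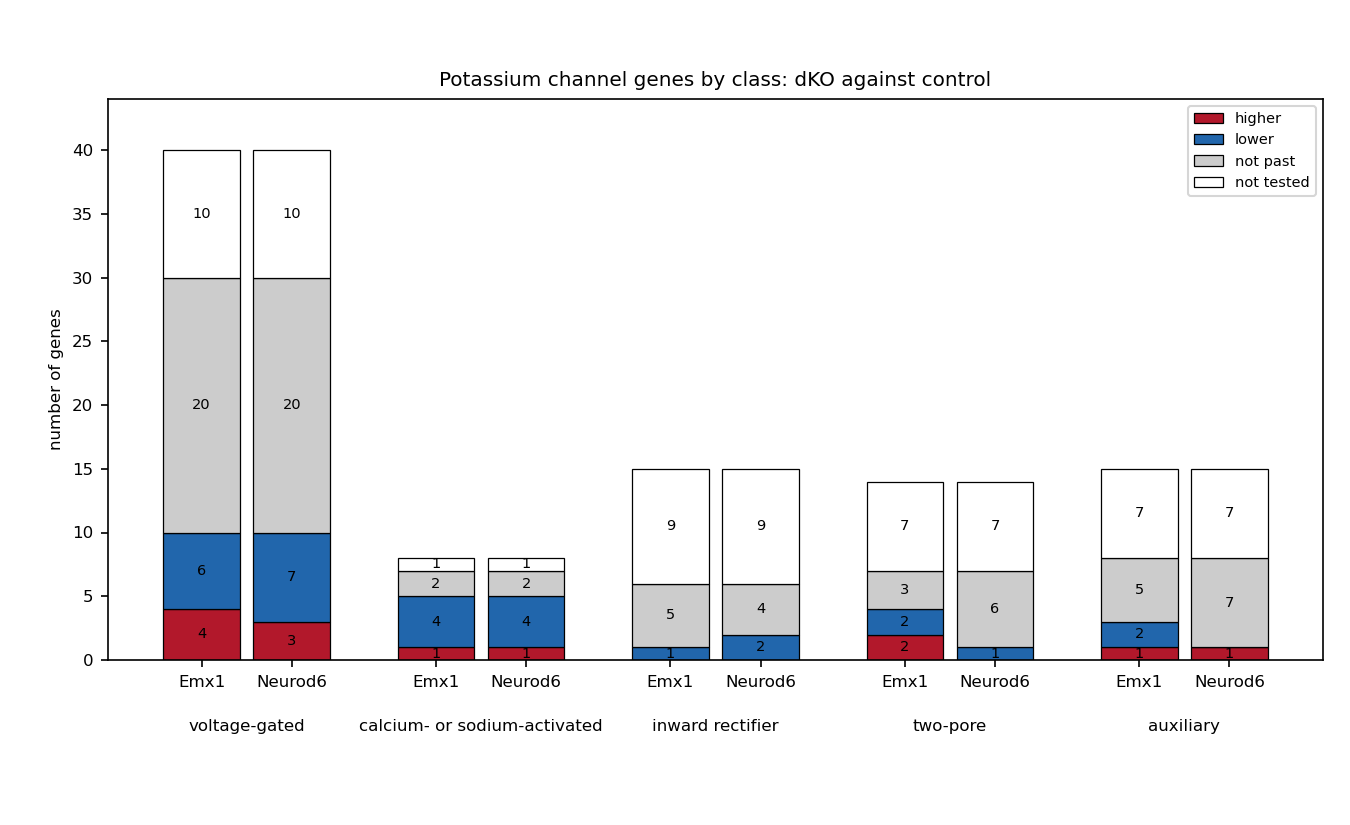
Number of potassium channel genes (vertical axis) by class, with Emx1 dKO against control on the left and Neurod6 dKO against control on the right of each pair. Colours mark genes called higher, called lower, tested but not past the threshold, and not tested. Of 30 tested voltage-gated members, 4 were higher and 6 lower in Emx1 dKO, and 3 higher and 7 lower in Neurod6 dKO. This is 33.3% in each, against 20.2% of all genes in Emx1 dKO and 11.3% in Neurod6 dKO.

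All members together took 1.02% to 1.11% of counts in Emx1 dKO, 1.03% to 1.12% in Neurod6 dKO and 1.16% to 1.24% in control. Both knockout ranges lay below the control range. Kcnip4, an auxiliary subunit gene 1135 kb long, alone took 0.122% to 0.218% in Emx1 dKO, 0.132% to 0.251% in Neurod6 dKO and 0.226% to 0.313% in control. Without Kcnip4 the shares were 0.876% to 0.898% in Emx1 dKO, 0.851% to 0.899% in Neurod6 dKO and 0.903% to 0.986% in control, and still did not overlap.

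The ether-a-go-go subfamily of voltage-gated channels held the largest fold change of that class in either knockout. Its genes, Kcnh1 to Kcnh8, encode channels with a cyclic-nucleotide-binding-like domain in the cytoplasm. Of 7 tested, 4 were called lower in Emx1 dKO, where 10.1% of all genes were, and 5 in Neurod6 dKO, where 6.29% were. Those that were not past the threshold in either were Kcnh4 and Kcnh8. The median log2 fold change of the 7 was -0.75 in Emx1 dKO and -0.58 in Neurod6 dKO.

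Kcnh1, which encodes the Kv10.1 (Eag1) channel, was at 44.4, 25.9, 25.8 and 21.3 CPM in Emx1 dKO libraries 1 to 4, at 19.0, 18.7, 12.4 and 8.11 CPM in Neurod6 dKO libraries 1 to 4 and at 89.0, 79.3, 92.0 and 92.5 CPM in control libraries 1 to 4. All knockout libraries lay below all control libraries, and the 4 Neurod6 dKO libraries lay below the 4 of Emx1 dKO. Kcnh1 fell in Emx1 dKO (log2 fold change -1.62, SE 0.17, edgeR adjusted p = 1.28e-08) and further in Neurod6 dKO (log2 fold change -2.81, SE 0.22, edgeR adjusted p = 6.19e-11). The difference between the knockouts also passed the test (log2 fold change 1.19, SE 0.25, edgeR adjusted p = 0.00391), but not without Neurod6 dKO 4 (adjusted p = 0.105).

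Kcnh7, which encodes the Erg3 channel, was at 860.2, 722, 774 and 708 CPM in Emx1 dKO libraries 1 to 4, at 676, 915, 772 and 916 CPM in Neurod6 dKO libraries 1 to 4 and at 1358, 1189, 1127 and 1233 CPM in control libraries 1 to 4. Neither knockout overlapped control, while the knockouts overlapped each other. Kcnh7 fell in Emx1 dKO (log2 fold change -0.68, SE 0.10, edgeR adjusted p = 1.35e-06) and in Neurod6 dKO (log2 fold change -0.58, SE 0.10, edgeR adjusted p = 4.77e-05). At 1227 ± 97.5 CPM in control (SD, n = 4) it was among the more abundant members, with the fifth highest level per kilobase of gene and also the fifth per kilobase of exon. Kcnh2, which encodes the related Erg1 channel of the heart and brain, had 10.1 ± 1.05 CPM in Emx1 dKO, 3.79 ± 3.83 in Neurod6 dKO and 10.7 ± 3.31 in control (SD, n = 4). It fell in Neurod6 dKO (log2 fold change -1.23, SE 0.38, edgeR adjusted p = 0.0283), where 2 libraries had fewer than 3 counts, and was not past the threshold in Emx1 dKO (log2 fold change -0.12). That call was lost without Neurod6 dKO 1 or 3 or control 1 or 3 (adjusted p = 0.0672 to 0.113).

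Kcnh5, which encodes Kv10.2 (Eag2), was at 34.0, 36.9, 51.6 and 53.1 CPM in Emx1 dKO libraries 1 to 4, at 61.2, 51.3, 56.5 and 79.3 CPM in Neurod6 dKO libraries 1 to 4 and at 105, 100.1, 71.7 and 95.6 CPM in control libraries 1 to 4. All Emx1 dKO libraries were below all control libraries, whereas Neurod6 dKO library 4 was above control library 3. Its level fell in Emx1 dKO (log2 fold change -1.07, SE 0.15, edgeR adjusted p = 1.7e-06) and in Neurod6 dKO (log2 fold change -0.51, SE 0.15, edgeR adjusted p = 0.0233), and was lower in Emx1 dKO than in Neurod6 dKO (log2 fold change -0.56, SE 0.16, edgeR adjusted p = 0.034). The order of the knockouts is thus the reverse of that for Kcnh1. The Neurod6 dKO call was lost without Neurod6 dKO 1, 2 or 3 or control 1, 2 or 4 (adjusted p = 0.0529 to 0.0874), and the difference between knockouts without Emx1 dKO 1 or 2 or Neurod6 dKO 4 (adjusted p = 0.085 to 0.37).

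Kcnh3, an Elk channel gene, ranged over 7.83 to 12.6 CPM in Emx1 dKO, 5.11 to 10.3 in Neurod6 dKO and 12.01 to 21.6 in control. A fall was called in Emx1 dKO (log2 fold change -0.91, SE 0.25, edgeR adjusted p = 0.0076), with overlap, and in Neurod6 dKO (log2 fold change -1.30, SE 0.29, edgeR adjusted p = 0.0019), without overlap. The Emx1 dKO call was lost without Emx1 dKO 3 and 4 (adjusted p = 0.144), and the Neurod6 dKO call was lost without Neurod6 dKO 4 (adjusted p = 0.0609). Exons of Kcnh3 overlap Mcrs1 and those of Kcnh7 overlap Gca on the other strand, and the sources do not say if counting used strand.

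**Figure D2:**
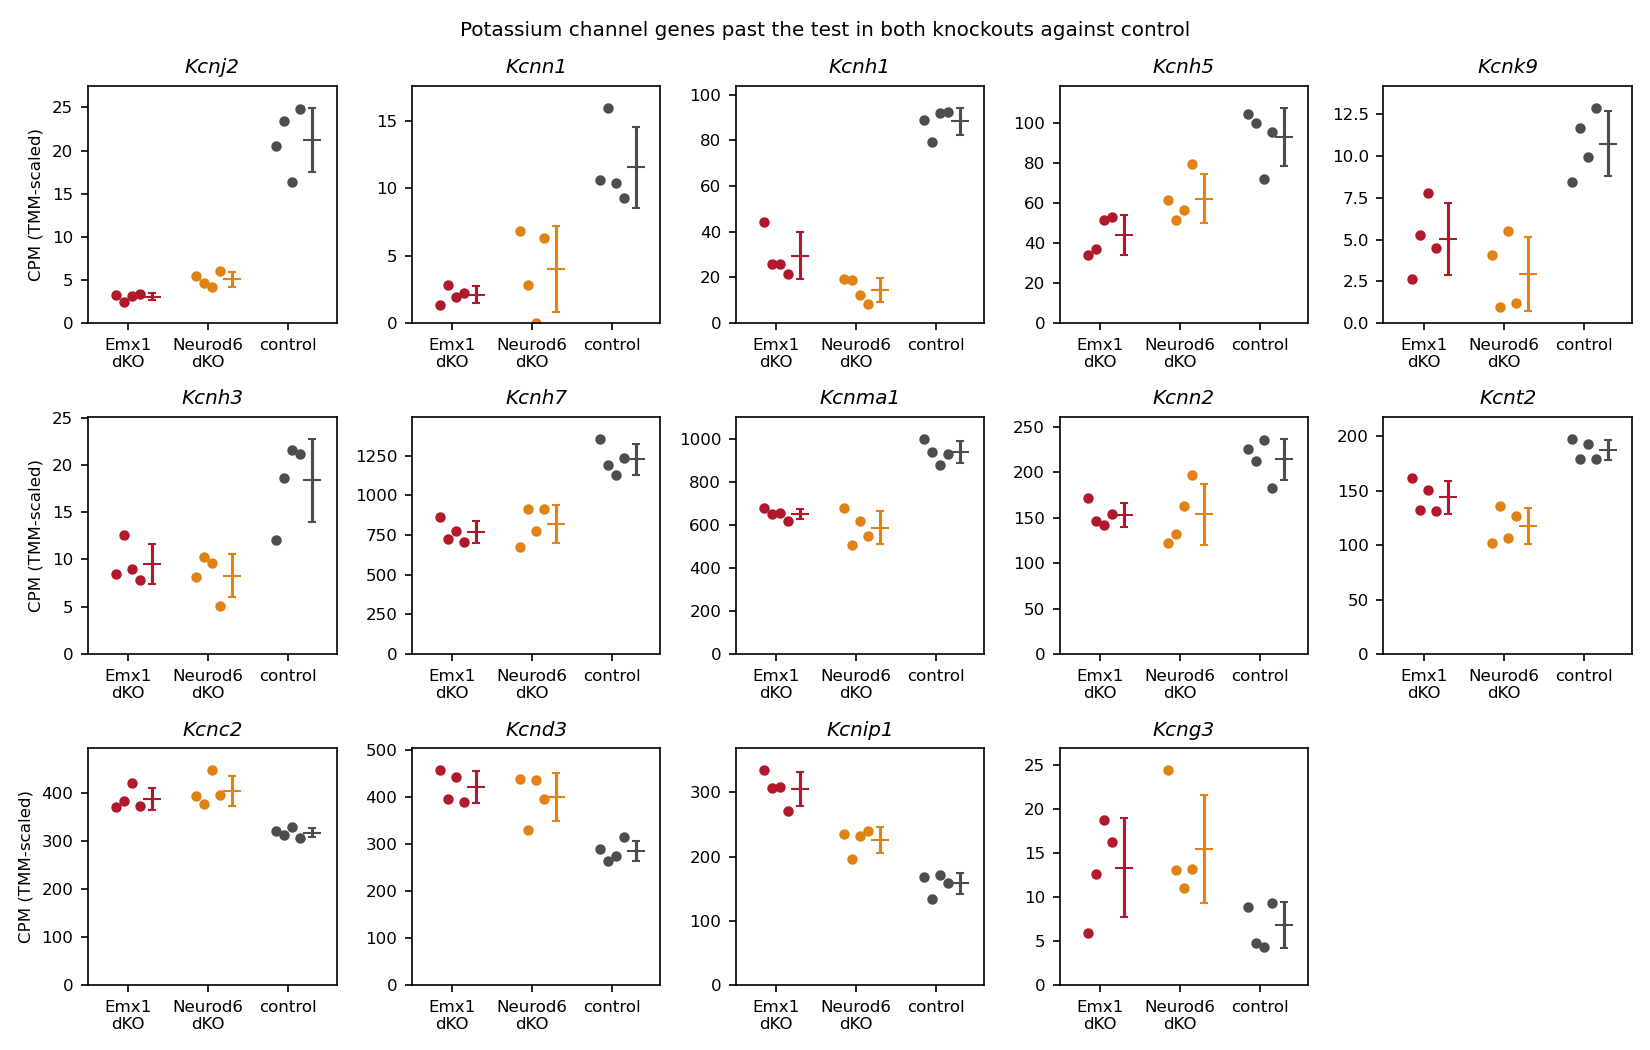
Levels in CPM (vertical axis, from 0) of 14 of the 15 members called in both knockouts, with 1 panel per gene and Emx1 dKO, Neurod6 dKO and control from left to right. Points are libraries, and bars show the mean and SD of 4; the control points of Kcnh1, at 79.3 to 92.5 CPM, stand above all knockout points.

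Among the pore-forming Shaker-related families, the A-type channel gene Kcnd3 and the fast delayed rectifier gene Kcnc2 were higher in both knockouts. Kcna genes, which encode low-threshold Kv1 channels of axons, had no call among 5 tested in either knockout by edgeR or DESeq2, with 1 at an unadjusted p below 0.05 in each. Over all genes, edgeR called 20.2% in Emx1 dKO and 11.3% in Neurod6 dKO.

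Kcnd3, which encodes Kv4.3, was at 459, 397, 442 and 389 CPM in Emx1 dKO libraries 1 to 4, at 439, 330.1, 437 and 395 CPM in Neurod6 dKO libraries 1 to 4 and at 289, 265, 275 and 314 CPM in control libraries 1 to 4. Every knockout library exceeded every control library. Kcnd3 rose in Emx1 dKO (log2 fold change 0.56, SE 0.09, edgeR adjusted p = 2.3e-05) and in Neurod6 dKO (log2 fold change 0.48, SE 0.10, edgeR adjusted p = 0.000476). Its paralogue Kcnd2, which encodes Kv4.2 and is the more abundant of the pair per kilobase of gene or exon in control, had 825 ± 65.4 CPM in Emx1 dKO, 863 ± 53.7 in Neurod6 dKO and 950.1 ± 78.8 in control (SD, n = 4). Kcnd2 was not past the threshold in either knockout (-0.21 in Emx1 dKO and -0.14 in Neurod6 dKO on the log2 scale). Exons of Kcnd3 overlap the antisense gene Kcnd3os.

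Kcnc2, which encodes Kv3.2, ranged over 371 to 421 CPM in Emx1 dKO, 377 to 449 in Neurod6 dKO and 307 to 329 in control, without overlap of either knockout with control. It rose in Emx1 dKO (log2 fold change 0.29, SE 0.09, edgeR adjusted p = 0.015) and in Neurod6 dKO (log2 fold change 0.34, SE 0.09, edgeR adjusted p = 0.00687). The Emx1 dKO call was lost without Emx1 dKO 3 or control 2 or 4 (adjusted p = 0.051 to 0.082). Neither call held when the filter on low counts was left out (edgeR adjusted p = 0.0777 in Emx1 dKO and 0.0852 in Neurod6 dKO). Of the same subfamily, Kcnc1 and Kcnc4 were not past the threshold in either knockout.

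Kcnb2, which encodes the slow delayed rectifier Kv2.2, was at 968 ± 25.9 CPM in Emx1 dKO, 927 ± 71.0 in Neurod6 dKO and 1016 ± 46.8 in control (SD, n = 4) and was not past the threshold.

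Kv5, Kv6, Kv8 and Kv9 subunits do not form channels alone and modify Kv2 channels. Kcng3 (Kv6.3) was at 5.88, 12.6, 18.8 and 16.2 CPM in Emx1 dKO libraries 1 to 4, at 24.5, 13.1, 11.03 and 13.2 CPM in Neurod6 dKO libraries 1 to 4 and at 8.83, 4.79, 4.32 and 9.30 CPM in control libraries 1 to 4. Neurod6 dKO lay above control throughout, whereas Emx1 dKO library 1 fell within the control range. Kcng3 rose in Emx1 dKO (log2 fold change 0.99, SE 0.31, edgeR adjusted p = 0.019) and in Neurod6 dKO (log2 fold change 1.09, SE 0.33, edgeR adjusted p = 0.0252). The Emx1 dKO call was lost without Emx1 dKO 3 or 4 or control 2 or 3 (adjusted p = 0.0601 to 0.124), and the Neurod6 dKO call without Neurod6 dKO 1 or control 2 or 3 (adjusted p = 0.0828 to 0.0963).

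Kcng1 (Kv6.1) ranged over 23.5 to 29.2 CPM in Emx1 dKO, 17.1 to 36.7 in Neurod6 dKO and 17.0 to 19.4 in control. It rose in Emx1 dKO (log2 fold change 0.53, SE 0.20, edgeR adjusted p = 0.0493), a call at the edge of the threshold that was lost without Emx1 dKO 1, 2, 3 or 4, Neurod6 dKO 3 or control 1, 2, 3 or 4 (adjusted p = 0.0524 to 0.158). Kcnf1 (Kv5.1) ranged over 3.91 to 7.27 CPM in Emx1 dKO, 0.901 to 3.73 in Neurod6 dKO and 3.46 to 8.78 in control. It fell in Neurod6 dKO (log2 fold change -1.78, SE 0.49, edgeR adjusted p = 0.0128), where 2 libraries had fewer than 3 counts, and the call was lost without Neurod6 dKO 4 (adjusted p = 0.218). Kcnv1 (Kv8.1) and Kcns3 (Kv9.3) were not past the threshold in either knockout, although both knockout ranges of Kcnv1 lay below control (-0.62 in Emx1 dKO and -0.80 in Neurod6 dKO on the log2 scale).

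Kcnq genes encode the M-current channels, which open below the spike threshold and damp repetitive firing. Kcnq5 was at 1086, 1348, 1344 and 1299.8 CPM in Emx1 dKO libraries 1 to 4, at 1227, 1318, 1541 and 1602 CPM in Neurod6 dKO libraries 1 to 4 and at 1883, 1595, 1334 and 1659 CPM in control libraries 1 to 4. Groups overlapped, with control library 3 within the Emx1 dKO range. Kcnq5 fell in Emx1 dKO (log2 fold change -0.35, SE 0.10, edgeR adjusted p = 0.013), a call lost without Emx1 dKO 1 or control 1 (adjusted p = 0.062 to 0.0799), and was not past the threshold in Neurod6 dKO (log2 fold change -0.18, SE 0.10, edgeR adjusted p = 0.295). Kcnq3, another M-channel subunit gene, was not past the threshold in Emx1 dKO (log2 fold change -0.02, SE 0.10, edgeR adjusted p = 0.91) or Neurod6 dKO (log2 fold change 0.14, SE 0.10, edgeR adjusted p = 0.458).

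Of 7 tested channels opened by internal calcium or sodium, 4 were called lower in Emx1 dKO, where 10.1% of all genes were, and 4 in Neurod6 dKO, where 6.29% were, with 1 higher in each. The genes lower in both were Kcnma1, Kcnn1, Kcnn2 and Kcnt2. The median log2 fold change of the 7 was -0.38 in Emx1 dKO and -0.44 in Neurod6 dKO.

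Kcnma1, which encodes the pore of the large-conductance BK channel, was at 679, 649.5, 656 and 619 CPM in Emx1 dKO libraries 1 to 4, at 679, 505, 618 and 550.0 CPM in Neurod6 dKO libraries 1 to 4 and at 1003, 941, 880.2 and 932 CPM in control libraries 1 to 4. All knockout libraries lay below all control libraries. Kcnma1 fell in Emx1 dKO (log2 fold change -0.53, SE 0.09, edgeR adjusted p = 2.96e-05) and in Neurod6 dKO (log2 fold change -0.68, SE 0.09, edgeR adjusted p = 7.65e-07).

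The small-conductance SK channel genes moved apart. Kcnn2 (SK2) was at 171, 146, 141 and 154 CPM in Emx1 dKO libraries 1 to 4, at 122, 132, 163 and 197 CPM in Neurod6 dKO libraries 1 to 4 and at 226, 212, 235 and 183 CPM in control libraries 1 to 4. Emx1 dKO did not overlap control, while Neurod6 dKO library 4 exceeded control library 4. It fell in Emx1 dKO (log2 fold change -0.49, SE 0.11, edgeR adjusted p = 0.00141) and in Neurod6 dKO (log2 fold change -0.44, SE 0.12, edgeR adjusted p = 0.0101). Without the libraries labelled control 1 and 3 neither call held (adjusted p = 0.0857 in Emx1 dKO and 0.211 in Neurod6 dKO). Kcnn1 (SK1) had 1.31 to 2.84 CPM in Emx1 dKO, 0 to 6.80 in Neurod6 dKO and 9.30 to 16.0 in control, and 1 library of each knockout had fewer than 3 counts. Its level fell in Emx1 dKO (log2 fold change -2.38, SE 0.40, edgeR adjusted p = 2.15e-05) and in Neurod6 dKO (log2 fold change -1.28, SE 0.38, edgeR adjusted p = 0.0221), where the call was lost without Neurod6 dKO 2 or 3 or control 2 (adjusted p = 0.0559 to 0.0932). Kcnn3 (SK3) had 91.2 to 135 CPM in Emx1 dKO, 114 to 135 in Neurod6 dKO and 94.3 to 107 in control. It rose in Neurod6 dKO (log2 fold change 0.36, SE 0.11, edgeR adjusted p = 0.0341), without overlap with control, and was not past the threshold in Emx1 dKO (log2 fold change 0.09, SE 0.11, edgeR adjusted p = 0.627). The Neurod6 dKO call was lost without Neurod6 dKO 1, 3 or 4 or control 1, 3 or 4 (adjusted p = 0.0514 to 0.11), and the difference between the knockouts was not past the threshold (log2 fold change -0.27, SE 0.11, edgeR adjusted p = 0.149).

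The sodium-activated channels also moved apart in Emx1 dKO. Kcnt1 (Slack) was at 49.0, 40.9, 44.2 and 43.1 CPM in Emx1 dKO libraries 1 to 4, at 44.9, 28.0, 28.9 and 19.2 CPM in Neurod6 dKO libraries 1 to 4 and at 27.9, 17.6, 23.3 and 18.6 CPM in control libraries 1 to 4. Each Emx1 dKO library exceeded each control library, and Neurod6 dKO library 1 stood above the other Neurod6 dKO libraries, within the Emx1 dKO range. Kcnt1 rose in Emx1 dKO (log2 fold change 0.98, SE 0.18, edgeR adjusted p = 8.03e-05), a call lost when libraries were thinned to the shallowest (log2 fold change 0.54, adjusted p = 0.147), and was not past the threshold in Neurod6 dKO (log2 fold change 0.28, SE 0.21, edgeR adjusted p = 0.472). It was higher in Emx1 dKO than in Neurod6 dKO (log2 fold change 0.70, SE 0.20, edgeR adjusted p = 0.0242), a call lost without Emx1 dKO 1, 3 or 4 or Neurod6 dKO 4 (adjusted p = 0.0541 to 0.319).

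Kcnt2 (Slick) ranged over 131 to 162 CPM in Emx1 dKO, 102 to 136 in Neurod6 dKO and 179 to 198 in control, with no overlap of either knockout with control. A fall was called in Emx1 dKO (log2 fold change -0.38, SE 0.10, edgeR adjusted p = 0.004) and in Neurod6 dKO (log2 fold change -0.64, SE 0.11, edgeR adjusted p = 2.32e-05). Kcnu1, which encodes Slo3, a channel known from sperm, was at 6.60 ± 2.72 CPM in control (SD, n = 4) and was not past the threshold.

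Few inward rectifiers were expressed well enough to test: 6 of 15. Kcnj2 was called lower in both knockouts and Kcnj6 in Neurod6 dKO. This is 16.7% of the 6 in Emx1 dKO and 33.3% in Neurod6 dKO, against 20.2% and 11.3% of all genes. The Emx1 dKO share was thus near that of all genes. Kcnj2, which encodes the strong inward rectifier Kir2.1, was at 3.27, 2.43, 3.13 and 3.36 CPM in Emx1 dKO libraries 1 to 4, at 5.44, 4.66, 4.14 and 6.01 CPM in Neurod6 dKO libraries 1 to 4 and at 20.5, 23.4, 16.4 and 24.8 CPM in control libraries 1 to 4. The groups were fully separated, with Emx1 dKO lowest and control highest. In counts, libraries 1 to 4 held 5, 6, 8 and 6 in Emx1 dKO and 4, 5, 3 and 20 in Neurod6 dKO. The order of the knockouts therefore rests on few counts. Kcnj2 fell in Emx1 dKO (log2 fold change -2.79, SE 0.28, edgeR adjusted p = 7.9e-10) and in Neurod6 dKO (log2 fold change -1.96, SE 0.28, edgeR adjusted p = 2.16e-06), the largest fall of any member in Emx1 dKO. The difference between knockouts was not past the threshold (log2 fold change -0.83, SE 0.38, edgeR adjusted p = 0.188).

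Kir2.1 is also found in endothelial cells, so their markers are given beside it. The summed level of 5 endothelial markers (Cldn5, Pecam1, Flt1, Cdh5 and Tek) was 39.9 to 67.3 CPM in Emx1 dKO, 31.3 to 57.7 CPM in Neurod6 dKO and 57.9 to 66.6 CPM in control. None of the 5 was past the threshold in either knockout by edgeR or DESeq2, and 1 was at an unadjusted p below 0.05 in each. Their part in the fall of Kcnj2 was not tested.

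Kcnj3 and Kcnj6 encode GIRK1 and GIRK2, which G-protein beta-gamma subunits open downstream of inhibitory receptors. Kcnj6 was at 54.9, 34.8, 35.6 and 56.5 CPM in Emx1 dKO libraries 1 to 4, at 34.0, 27.0, 42.7 and 24.0 CPM in Neurod6 dKO libraries 1 to 4 and at 51.6, 50.1, 49.2 and 44.4 CPM in control libraries 1 to 4. Neurod6 dKO lay wholly below control and overlapped Emx1 dKO, which in turn spread on both sides of the control range. Kcnj6 fell in Neurod6 dKO (log2 fold change -0.73, SE 0.18, edgeR adjusted p = 0.00584), a call lost without Neurod6 dKO 4 (adjusted p = 0.0838), and was not past the threshold in Emx1 dKO (log2 fold change -0.14, SE 0.16, edgeR adjusted p = 0.588). It was higher in Emx1 dKO than in Neurod6 dKO (log2 fold change 0.59, SE 0.19, edgeR adjusted p = 0.0491), a call lost without Emx1 dKO 1 or 4, Neurod6 dKO 2 or 4 or control 1, 2, 3 or 4 (adjusted p = 0.0593 to 0.357).

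Kcnj3 was at 135, 185, 162 and 170.0 CPM in Emx1 dKO libraries 1 to 4, at 182, 201, 226 and 266 CPM in Neurod6 dKO libraries 1 to 4 and at 209, 188, 176 and 171 CPM in control libraries 1 to 4. The highest Emx1 dKO library exceeded the lowest Neurod6 dKO library, so the knockouts overlapped slightly. Kcnj3 was not past the threshold against control in Emx1 dKO (log2 fold change -0.19, SE 0.11, edgeR adjusted p = 0.231) or in Neurod6 dKO (log2 fold change 0.26, SE 0.11, edgeR adjusted p = 0.137), but was lower in Emx1 dKO than in Neurod6 dKO (log2 fold change -0.45, SE 0.11, edgeR adjusted p = 0.0111). That call was lost without Neurod6 dKO 4 (adjusted p = 0.11). The GIRK pair thus differed between knockouts in opposite directions. Kcnj10, the Kir4.1 gene of astrocytes, and Kcnj11, the pore gene of ATP-sensitive channels, were not past the threshold, nor was Kcnj9 (GIRK3), with 1.17 to 6.15 CPM in Emx1 dKO, 0.601 to 8.16 in Neurod6 dKO and 3.18 to 8.52 in control.

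Two-pore channels carry the background leak that sets the resting potential. Of 7 tested, Kcnk12 and Kcnk13 were called higher and Kcnk9 and Kcnk10 lower in Emx1 dKO, which is 57.1%, against 20.2% of all genes. Kcnk9 alone was called, lower, in Neurod6 dKO, which is 14.3% and near the 11.3% of all genes.

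Kcnk10 (TREK-2), a channel opened by membrane stretch and lipids, was at 191, 195, 194 and 167 CPM in Emx1 dKO libraries 1 to 4, at 209.5, 207, 298 and 371 CPM in Neurod6 dKO libraries 1 to 4 and at 304, 269, 281 and 309 CPM in control libraries 1 to 4. Emx1 dKO lay below all other libraries, and within Neurod6 dKO libraries 1 and 2 lay below control and library 4 above it. Kcnk10 fell in Emx1 dKO (log2 fold change -0.64, SE 0.14, edgeR adjusted p = 0.00201) and was not past the threshold in Neurod6 dKO (log2 fold change -0.07, SE 0.14, edgeR adjusted p = 0.838). The difference between knockouts passed the test (log2 fold change -0.57, SE 0.14, edgeR adjusted p = 0.0192), and this call was lost without Emx1 dKO 4 or Neurod6 dKO 4 (adjusted p = 0.0614 to 0.0678). Its paralogue Kcnk2 (TREK-1) was at 117 ± 7.73 CPM in Emx1 dKO, 134 ± 27.6 in Neurod6 dKO and 108 ± 14.2 in control (SD, n = 4) and was not past the threshold.

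The other called two-pore genes were low in counts. Kcnk9 (TASK-3), an acid-sensitive channel and an imprinted gene expressed from the maternal copy, ranged over 2.61 to 7.82 CPM in Emx1 dKO, 0.933 to 5.51 in Neurod6 dKO and 8.48 to 12.9 in control, without overlap with control. It fell in Emx1 dKO (log2 fold change -0.996, SE 0.34, edgeR adjusted p = 0.0312) and in Neurod6 dKO (log2 fold change -2.27, SE 0.45, edgeR adjusted p = 0.000409), where 1 library had fewer than 3 counts. The Emx1 dKO call was lost without Emx1 dKO 1, 2 or 4 or control 2, 3 or 4 (adjusted p = 0.0508 to 0.095).

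Kcnk12 (THIK-2) ranged over 7.18 to 9.51 CPM in Emx1 dKO, 2.76 to 4.08 in Neurod6 dKO and 1.41 to 4.13 in control. All Emx1 dKO libraries lay above all others. It rose in Emx1 dKO (log2 fold change 1.45, SE 0.36, edgeR adjusted p = 0.00316) and was higher there than in Neurod6 dKO (log2 fold change 1.30, SE 0.40, edgeR adjusted p = 0.0427), a difference lost without Emx1 dKO 1, 2, 3 or 4, Neurod6 dKO 3 or 4 or control 2, 3 or 4 (adjusted p = 0.0519 to 0.221). Kcnk13 (THIK-1), the main potassium leak channel of microglia, ranged over 5.88 to 7.42 CPM in Emx1 dKO, 1.36 to 10.3 in Neurod6 dKO and 0.533 to 3.46 in control, where 2 libraries had fewer than 3 counts. Kcnk13 rose in Emx1 dKO (log2 fold change 1.77, SE 0.47, edgeR adjusted p = 0.00547), a call lost without Emx1 dKO 3 and 4 (adjusted p = 0.0703). The summed level of 5 microglial markers was 16.0 to 19.6 CPM in Emx1 dKO, 13.1 to 18.9 CPM in Neurod6 dKO and 9.18 to 12.96 CPM in control. Of the 2 that could be tested, Csf1r was called higher in Emx1 dKO and Cx3cr1 was not past the threshold, while Aif1 and C1qa were at or near 0. Their part in the rise of Kcnk13 was not tested.

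Auxiliary subunits had 3 of 8 tested members past the threshold in Emx1 dKO, 1 of 8 in Neurod6 dKO and 4 of 8 between the knockouts, beside 20.2%, 11.3% and 6.84% of all genes. The Neurod6 dKO count was thus near the share over all genes. Kv channel-interacting proteins bind Kv4 channels and raise their surface level. Kcnip1 (KChIP1) was at 336, 307, 308 and 272 CPM in Emx1 dKO libraries 1 to 4, at 235, 196, 232 and 239 CPM in Neurod6 dKO libraries 1 to 4 and at 168, 135, 171 and 159 CPM in control libraries 1 to 4. The groups were ordered without overlap, with Emx1 dKO highest, Neurod6 dKO between and control lowest. Kcnip1 rose in Emx1 dKO (log2 fold change 0.94, SE 0.10, edgeR adjusted p = 9.77e-10) and in Neurod6 dKO (log2 fold change 0.51, SE 0.10, edgeR adjusted p = 0.000368), and was higher in Emx1 dKO than in Neurod6 dKO (log2 fold change 0.43, SE 0.10, edgeR adjusted p = 0.00518). It was the member whose call between the knockouts held without any single library and in every other alternative fit.

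KChIP1 is abundant in cortical interneurons, which arise outside both Cre lineages, as is Kv3.2. The summed level of 7 interneuron markers (Gad1, Gad2, Dlx1, Dlx2, Dlx5, Lhx6 and Slc32a1) was 262 to 409 CPM in Emx1 dKO, 283 to 339 CPM in Neurod6 dKO and 276 to 327 CPM in control. The highest sum, 409 CPM, was that of Emx1 dKO library 1, with 262, 282 and 318 CPM in libraries 2 to 4. No marker was past the threshold in either knockout (0 of 7 by edgeR, 0 of 7 by DESeq2 and 0 of 7 at an unadjusted p below 0.05). The part of interneurons in the rises of Kcnip1 and Kcnc2 was not tested.

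Kcnip3 (KChIP3, also the calcium-binding transcriptional repressor DREAM) was at 29.4, 34.8, 25.4 and 30.8 CPM in Emx1 dKO libraries 1 to 4, at 47.6, 44.8, 35.8 and 63.7 CPM in Neurod6 dKO libraries 1 to 4 and at 38.8, 37.8, 46.2 and 41.3 CPM in control libraries 1 to 4. Emx1 dKO lay below both other groups, which overlapped. Its level fell in Emx1 dKO (log2 fold change -0.45, SE 0.16, edgeR adjusted p = 0.0391), a call lost without Emx1 dKO 1, 3 or 4 or control 1, 3 or 4 (adjusted p = 0.0563 to 0.155), and was not past the threshold in Neurod6 dKO (log2 fold change 0.32, SE 0.16, edgeR adjusted p = 0.215). Between the knockouts it was lower in Emx1 dKO (log2 fold change -0.77, SE 0.16, edgeR adjusted p = 0.00351), a call lost without Neurod6 dKO 4 (adjusted p = 0.128). Kcnip4 was at 1157, 1977, 2128 and 2115 CPM in Emx1 dKO libraries 1 to 4, at 2464, 2168, 2408 and 1393 CPM in Neurod6 dKO libraries 1 to 4 and at 2807, 2381, 3282 and 2692 CPM in control libraries 1 to 4. Emx1 dKO library 1 and Neurod6 dKO library 4 were the lowest, and Kcnip4 was not past the threshold in Emx1 dKO (log2 fold change -0.60, SE 0.23, edgeR adjusted p = 0.1) or Neurod6 dKO (log2 fold change -0.41, SE 0.23, edgeR adjusted p = 0.335).

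The BK beta subunits slow or inactivate the channel formed by Kcnma1. Kcnmb2 was at 172, 228, 216 and 233 CPM in Emx1 dKO libraries 1 to 4, at 325, 248, 314 and 256 CPM in Neurod6 dKO libraries 1 to 4 and at 339.7, 327, 304 and 295 CPM in control libraries 1 to 4. Emx1 dKO libraries lay below all Neurod6 dKO and control libraries. Kcnmb2 fell in Emx1 dKO (log2 fold change -0.57, SE 0.10, edgeR adjusted p = 3.94e-05) and was not past the threshold in Neurod6 dKO (log2 fold change -0.17, SE 0.10, edgeR adjusted p = 0.351), and the knockouts differed (log2 fold change -0.41, SE 0.10, edgeR adjusted p = 0.0133). The difference was lost without Emx1 dKO 1 or Neurod6 dKO 3 (adjusted p = 0.0542 to 0.0628). Kcnmb4, the beta subunit gene of most neuronal BK channels, whose exons overlap antisense genes, was lower than control in every knockout library but not past the threshold (-0.22 in Emx1 dKO, edgeR adjusted p = 0.212, and -0.36 in Neurod6 dKO, adjusted p = 0.0686, on the log2 scale).

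Kcnab1, which encodes the Kv beta 1 subunit that speeds inactivation of Kv1 channels, ranged over 55.5 to 82.7 CPM in Emx1 dKO, 38.2 to 59.3 in Neurod6 dKO and 48.7 to 60.4 in control. It was not past the threshold against control in Emx1 dKO (log2 fold change 0.31, SE 0.14, edgeR adjusted p = 0.107) or Neurod6 dKO (log2 fold change -0.27, SE 0.16, edgeR adjusted p = 0.313), but was higher in Emx1 dKO than in Neurod6 dKO (log2 fold change 0.58, SE 0.15, edgeR adjusted p = 0.0168). That call was lost without Emx1 dKO 2 or 3 or Neurod6 dKO 4 (adjusted p = 0.0683 to 0.174).

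**Figure D3:**
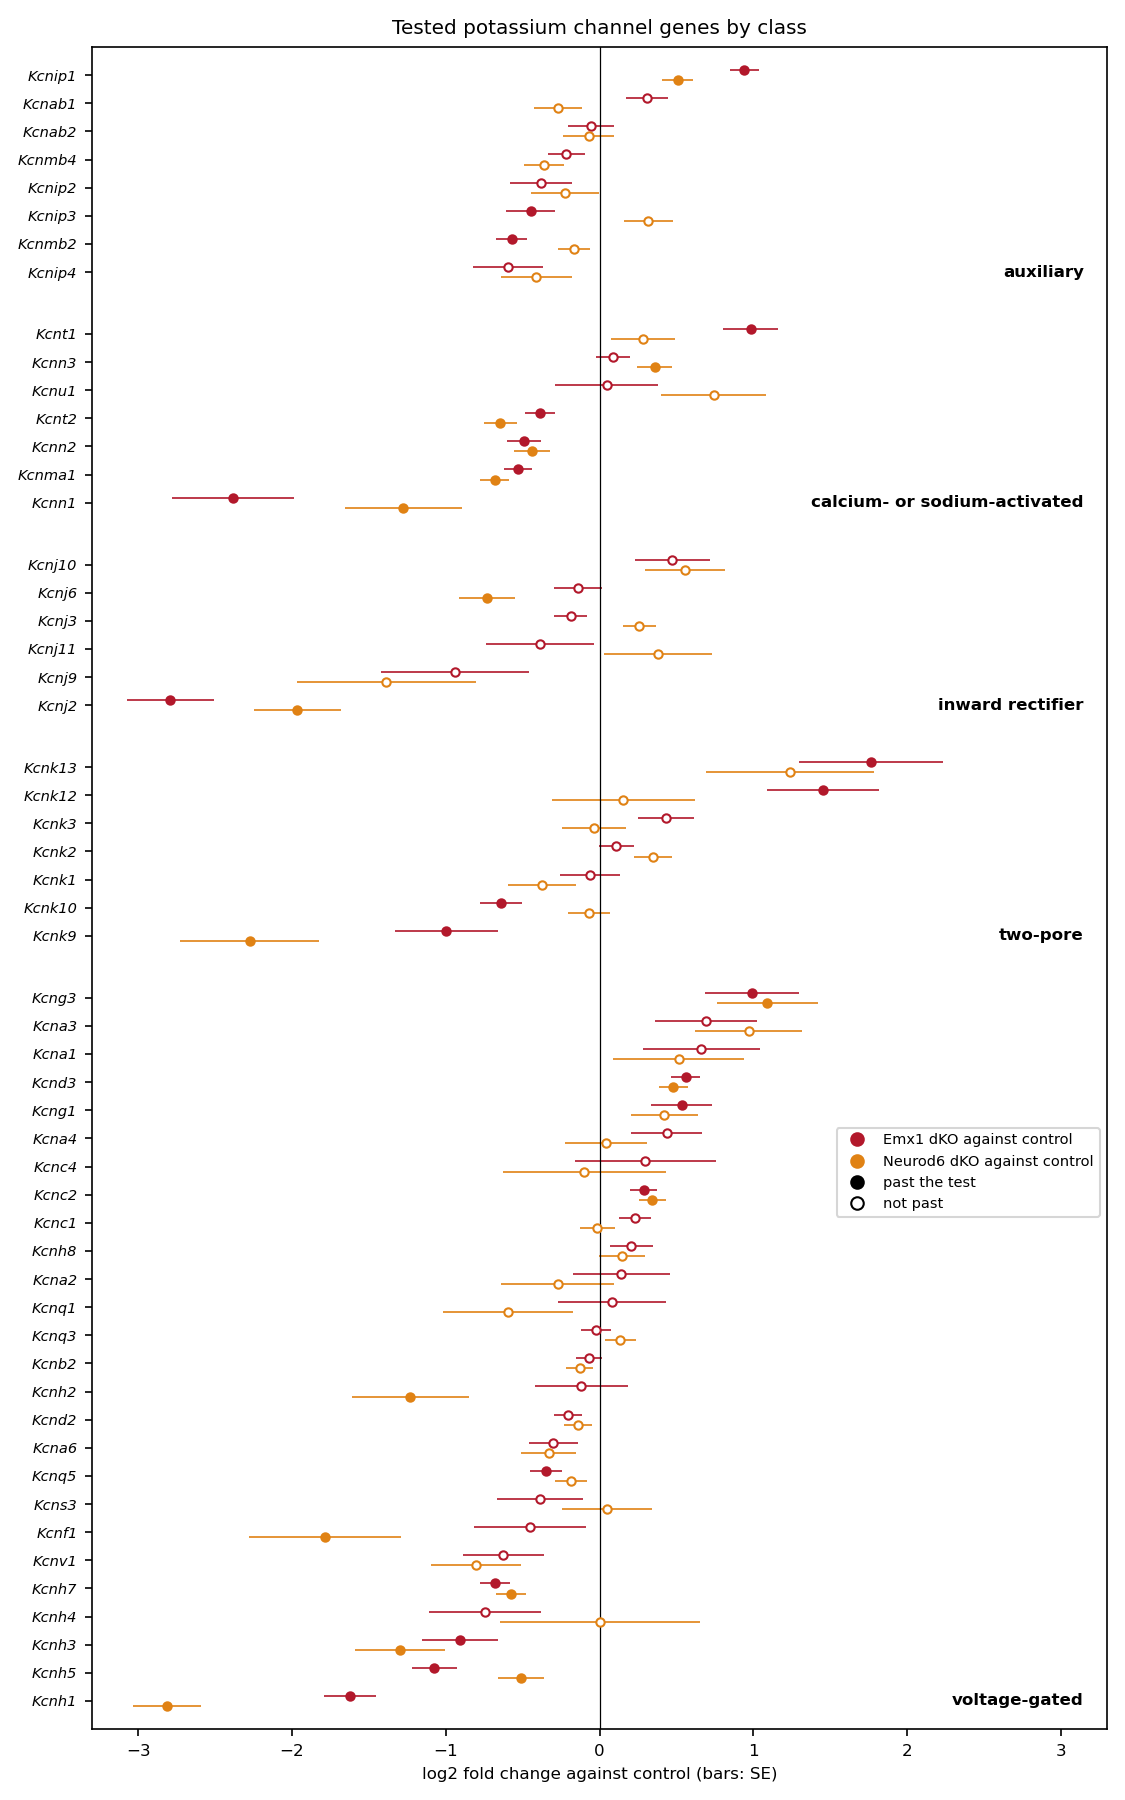
Log2 fold change against control (horizontal axis) with SE bars for 54 of the 58 tested members, 1 gene per row grouped by class, with Emx1 dKO in red above Neurod6 dKO in orange. Filled symbols passed the threshold; Kcnj2 in Emx1 dKO (-2.79) and Kcnh1 in Neurod6 dKO (-2.81) lie farthest to the left.

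Set side by side, the 11 members that differed between the knockouts were Kcnk12, Kcnh1, Kcnt1, Kcnj6, Kcnab1 and Kcnip1, higher in Emx1 dKO, and Kcnip3, Kcnk10, Kcnh5, Kcnj3 and Kcnmb2, lower in Emx1 dKO. Without Neurod6 dKO library 4, the deepest library, 2 members were called in place of 11. Of the calls against control, 16 of 23 in Emx1 dKO and 11 of 19 in Neurod6 dKO held without any single library.

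**Figure D4:**
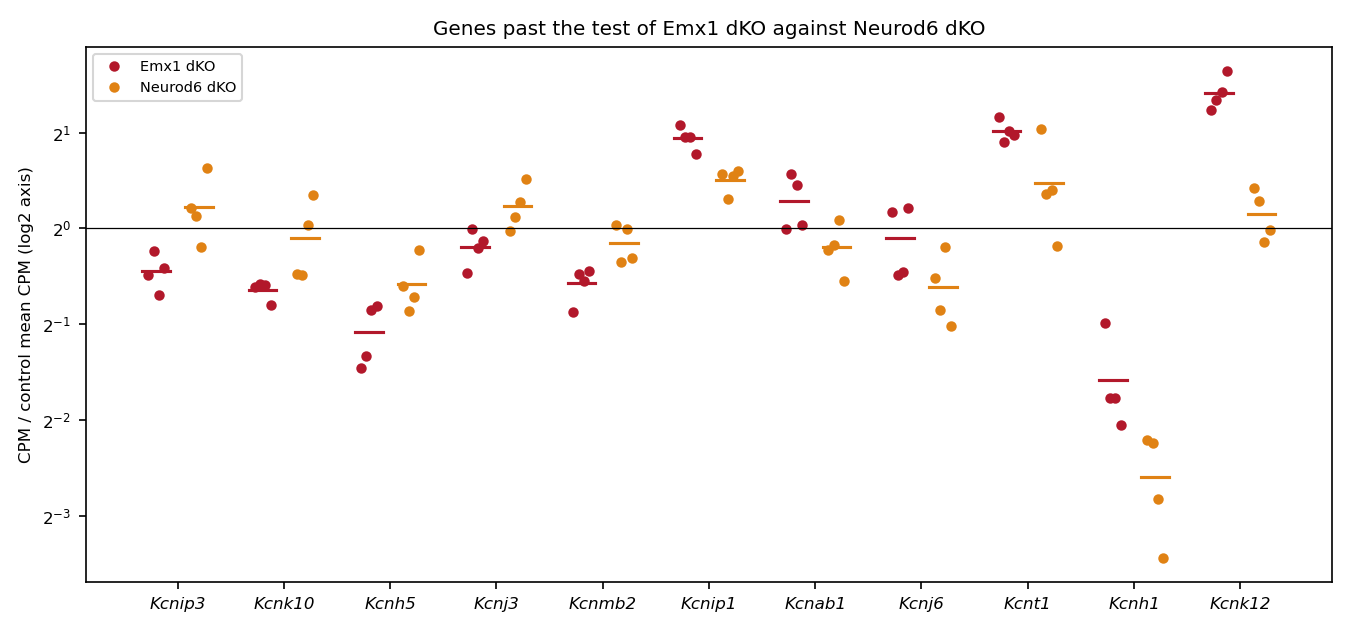
Level in each knockout library divided by the mean of the 4 control libraries (vertical axis, log2 scale) for the 11 members that differed between the knockouts, with Emx1 dKO left of Neurod6 dKO. Points are libraries, short lines are means and the line at 1 is the control mean; for Kcnip1 the means were 306 ± 26.2 CPM in Emx1 dKO, 226 ± 20.1 CPM in Neurod6 dKO and 158 ± 16.7 CPM in control (SD, n = 4).

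A second list held 35 genes for proteins that bind, traffic or regulate potassium channels, of which 29 were tested. In Emx1 dKO 1 was higher and 6 were lower, and in Neurod6 dKO 1 was higher and 5 were lower, against 20.2% of all genes called in Emx1 dKO and 11.3% in Neurod6 dKO. The share of the list was thus near that of all genes in Emx1 dKO. Dlg2, which encodes the scaffold PSD-93 that anchors Kv1 and inward rectifier channels, was at 1447 ± 34.2 CPM in Emx1 dKO, 1928 ± 260.1 in Neurod6 dKO and 4187 ± 356 in control (SD, n = 4). A fall was called in Emx1 dKO (log2 fold change -1.53, SE 0.10, edgeR adjusted p = 4.9e-15) and in Neurod6 dKO (log2 fold change -1.12, SE 0.10, edgeR adjusted p = 3.43e-11). Dpp10, whose protein joins Kv4 channels with the KChIPs, was at 406 ± 45.0 CPM in Emx1 dKO, 527 ± 56.0 in Neurod6 dKO and 780.5 ± 97.6 in control (SD, n = 4). Dpp10 fell in both knockouts (-0.94 in Emx1 dKO and -0.58 in Neurod6 dKO on the log2 scale). The BK gamma subunit gene Lrrc55 also fell in both, by 1.15 in Emx1 dKO and 1.09 in Neurod6 dKO.

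Adam22, for an LGI1 receptor found with axonal Kv1 channels, fell by 0.34 on the log2 scale in Emx1 dKO and by 0.28 in Neurod6 dKO. In Emx1 dKO the scaffold gene Dlg4 fell by 0.28, the G-protein gamma gene Gng2 fell by 0.41, and Rgs7bp, which binds regulators of G-protein signalling, rose by 0.34. In Neurod6 dKO Nedd4l, a ubiquitin ligase that acts on Kcnq channels, rose by 0.60. Between the knockouts Dpp6 (0.38) and Calm2 (0.45) were higher, and Dpp10 (-0.37), Dlg2 (-0.41) and Nedd4l (-0.37) lower, in Emx1 dKO.

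Neuronal markers moved in the same libraries. The summed level of 4 upper-layer markers (Cux1, Cux2, Pou3f2 and Rorb) was 737 to 910.1 CPM in Emx1 dKO, 1074 to 1288 CPM in Neurod6 dKO and 1426 to 1584 CPM in control, and 4 of 4 were called lower in Emx1 dKO and 2 of 4 in Neurod6 dKO. The summed level of 5 excitatory neuron markers (Slc17a7, Slc17a6, Neurod2, Neurod6 and Tbr1) was 357 to 441 CPM in Emx1 dKO, 340 to 491 CPM in Neurod6 dKO and 457 to 511 CPM in control, and Slc17a7 and Neurod6 were called lower in both knockouts. Neurod6, the gene whose promoter drives 1 of the Cre alleles, was at 71.0 ± 6.47 CPM in Emx1 dKO, 58.7 ± 3.90 in Neurod6 dKO and 141 ± 9.49 in control (SD, n = 4). Without it the sums overlapped, at 287 to 367 CPM in Emx1 dKO, 284 to 430 CPM in Neurod6 dKO and 320.3 to 376 CPM in control, and Tbr1 was above control on average in both knockouts without passing the test. The summed level of 5 deep-layer markers overlapped control, at 2574 to 2933 CPM in Emx1 dKO, 2414 to 3403 CPM in Neurod6 dKO and 2809 to 3146 CPM in control. In Emx1 dKO 1 was called higher and 2 lower, and in Neurod6 dKO 1 higher and 0 lower. The summed level of 7 radial glia markers was 294 to 361 CPM in Emx1 dKO, 315 to 375 CPM in Neurod6 dKO and 229 to 271 CPM in control. Of 4 tested, 1 was called higher in Emx1 dKO (0 by DESeq2) and 3 in Neurod6 dKO (3 by DESeq2). What part these markers had in the channel results was not tested.

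By their medians, called members were longer than the others, although the called Kcnf1 spans 4.79 kb and the called Kcnj2 spans 10.7 kb. In Emx1 dKO the median gene length was 76.4 kb for the 8 higher members, 280 kb for the 15 lower members and 42.2 kb for the 35 that were not past the threshold. Over all genes tested these medians were 54.5 kb, 90.7 kb and 27.8 kb. In Neurod6 dKO they were 196 kb for the 5 higher members, 172 kb for the 14 lower members and 54.5 kb for the other 39, against 86.2 kb, 107 kb and 29.1 kb over all genes. Expression differed along with length: the median average log2 CPM was 6.22 for members lower in Emx1 dKO and 4.07 for those not past the threshold. The part of length and depth in these calls was not tested.

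Tested members that passed no threshold numbered 29, among them Kcna1, Kcna2, Kcna3, Kcna4, Kcna6, Kcnab2, Kcnb2, Kcnc1, Kcnc4, Kcnd2, Kcnh4, Kcnh8, Kcnip2, Kcnip4, Kcnj10, Kcnj11, Kcnj9, Kcnk1, Kcnk2, Kcnk3, Kcnmb4, Kcnq1, Kcnq3, Kcns3, Kcnu1 and Kcnv1. The log2 fold changes of the 29 lay between -0.94 and 0.69 in Emx1 dKO and between -1.39 and 0.97 in Neurod6 dKO. At an unadjusted p below 0.05 there were 7 of them in Emx1 dKO and 7 in Neurod6 dKO, and DESeq2 called 0 in either. Kcnq1 shares exons with the antisense Kcnq1ot1, so its counts are uncertain. The called members Kcnab1, Kcnj3, Kcnn1, Kcnn2, Kcnq5 and Kcnt2 also have exons that overlap a gene on the other strand, and their counts carry the same uncertainty.

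Members below the filter numbered 34, each with at most 92 counts over all 12 libraries. They included the 4 Kcne genes, for small single-pass subunits known from heart and epithelium, and 9 of the 15 Kcnj genes, among them Kcnj1 of kidney, Kcnj8 of pericytes and Kcnj13 to Kcnj16. The others were Kcna5, Kcna7, Kcna10, Kcnab3, Kcnd1, Kcng2, Kcng4, Kcnh6, Kcnj4, Kcnj5, Kcnj12, Kcnk4 to Kcnk7, Kcnk15, Kcnk16, Kcnk18, Kcnmb1, Kcnmb3, Kcnn4, Kcns1, Kcns2 and Kcnv2. Of the 34, 9 had no count in any library (Kcna7, Kcne3, Kcng4, Kcnj13, Kcnk7, Kcnk16, Kcnk18, Kcnmb3 and Kcnv2), and for these a level of up to 0.857 CPM was allowed in the deepest library.

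Levels between members were compared per length in control. Per kilobase of exon Kcnip4, Kcnq5, Kcnd2 and Kcnmb2 ranked highest, and per kilobase of gene Kcnq5, Kcna3 and Kcnc1 were among the highest 4. Kcnq5 was in second place in both orders, while most other ranks depended on which length was used.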

How the data were processed

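RNA depleted of ribosomal RNA was read with unique molecular identifiers (UMIs) from libraries made by ClickSeq, which joins adapters to terminated cDNA by click chemistry. Each deposited file holds 1 library as whole-number counts for each gene, which the authors left unnormalized. STAR, UMI-tools, HTSeq and mm10 are named per the submitters' processing notes. Not given in the sources used here: versions, annotation, strand and counting options. Therefore antisense and overlapping genes are uncertain and introns may have been counted. Reads without a gene, ambiguous reads and reads mapped to several places were listed apart and left out, which left 85.2% to 88.9% of each library in genes. Gene names, types and lengths came from GENCODE M21 by gene identifier, which matched 51719 identifiers (99.6%).

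Members and lists were chosen with earlier results of these data known. Counts were scaled with TMM, filtered with filterByExpr (minimum count 10, 11076 genes) and entered 1 edgeR quasi-likelihood fit of 12 libraries with a group term and 9 residual degrees of freedom. P-values were adjusted by the Benjamini-Hochberg method over all genes tested, and 0.05 was the threshold. The procedure was tested on simulated data. Of the members past the threshold whose mean log2 CPM reached 3, the 10 largest rises and the 10 largest falls per comparison (10 in all between the knockouts) are given with their values, and all others past it with their fold change. Members not past the threshold that are given with values were chosen after these were seen. Libraries of a group differed by more than sampling noise (chi-square divided by its degrees of freedom, 1.62 to 5.99). Depth limits precision: the floor of 3 counts covers counting error only, whereas the SE and SD values also hold the spread between libraries. Tools were R 4.3.3, edgeR 4.0.16, limma 3.58.1, DESeq2 1.42.0, Python 3.11.15, pandas 2.3.3, scipy 1.17.1 and matplotlib 3.10.9. The alternatives tried were other scalings, DESeq2, other filters, fits of 2 groups, a replicate block, libraries left out and thinning to 722080 counts. A few members and other genes of the lists are not reported here by name; counts and medians over the members include them.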

Additional observations from a re-analysis of the deposited data

Results flagged for a closer look

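The 11 members below differed between the knockouts by the direct test, and the values are log2 fold changes of Emx1 dKO over Neurod6 dKO. Kcnk12 was at 1.30 (edgeR adjusted p = 0.0427), Kcnh1 at 1.19 (adjusted p = 0.00391), Kcnt1 at 0.70 (adjusted p = 0.0242), Kcnj6 at 0.59 (adjusted p = 0.0491), Kcnab1 at 0.58 (adjusted p = 0.0168) and Kcnip1 at 0.43 (adjusted p = 0.00518). Kcnip3 was at -0.77 (adjusted p = 0.00351), Kcnk10 at -0.57 (adjusted p = 0.0192), Kcnh5 at -0.56 (adjusted p = 0.034), Kcnj3 at -0.45 (adjusted p = 0.0111) and Kcnmb2 at -0.41 (adjusted p = 0.0133). Calls of the other 10 than Kcnip1 were each lost when at least 1 single library was left out.

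A pair of values stood apart from the other libraries of their group. Kcng3 was at 24.5 CPM in Neurod6 dKO library 1, against 11.03 to 13.2 CPM in the other 3. Kcnk10 was at 167 CPM in Emx1 dKO library 4, against 191 to 195 CPM in the other 3. Of 87 groups of 4 libraries examined, chance alone gives about 1 in 20, or 4.35.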

How the results depend on the processing

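No fold change past the threshold changed sign in any alternative fit; some that were not past it did, such as that of Kcnh2 in Emx1 dKO with library totals (0.01, against -0.12). Leaving out 1 library at a time gave 18 to 25 called members in Emx1 dKO against control, 16 to 19 in Neurod6 dKO against control and 2 to 12 between the knockouts (300 genes, the lowest over all genes, and 2 members without Neurod6 dKO 4; all genes ranged over 1699 to 2753 in Emx1 dKO, 972 to 1298 in Neurod6 dKO and 300 to 1036 between the knockouts). Without control 1 and 3, 14 members and 1215 genes were called in Emx1 dKO and 756 genes in Neurod6 dKO. Without Emx1 dKO 3 and 4 there were 15 members and 1225 genes in Emx1 dKO, and 3 members and 199 genes between the knockouts. Thinned to the shallowest library, only 41 members and 8536 genes were tested. Of these, 13 members and 1214 genes were called in Emx1 dKO, 12 members and 721 genes in Neurod6 dKO, and 4 members and 326 genes between the knockouts. Of the members called in Emx1 dKO in the main fit, 18 were still tested, and 5 of these calls were lost. Between the knockouts DESeq2 called 6 of the 40 members and 507 of the 8339 genes to which it gave an adjusted p. A fit of these 2 groups alone called 9 of 49 members and 488 of 10220 genes. Library totals in place of TMM moved the share of higher calls among members in Emx1 dKO to 50%, against 34.8%. Over all genes this share moved to 73.9%, against 50%. The same scaling ended Emx1 dKO calls including Kcnip3, Kcnk9, Kcnq5 and Kcnt2. DESeq2 ended calls including those of Kcng1, Kcng3, Kcnip3 and Kcnk9 in Emx1 dKO, of Kcnf1, Kcnh2, Kcnn1 and Kcnn3 in Neurod6 dKO, and of Kcnab1, Kcnh5, Kcnj6 and Kcnt1 between the knockouts. Fewer samples or counts enter the fits without libraries and the thinned fit; the cause of the other changes was not tested.

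Libraries with the same replicate number did not deviate together (correlations between -0.124 and 0.013), so the number does not pair them. With it as a block, 22 members were called in Emx1 dKO, 18 in Neurod6 dKO and 8 between the knockouts, where 500 genes were called over all genes. Not every library correlated best with its own number (1 of 4 Emx1 dKO libraries against Neurod6 dKO). Depth limits members with few counts, such as Kcnn1, Kcnk9, Kcnk12, Kcnk13, Kcnf1, Kcnh2 and, in the knockouts, Kcnj2.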
